A study of Solanum tuberosum with 10 samples.

Results

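Among the potato genes measured after an ultrasound exposure, a set of 260 was higher in ultrasonicated than in control material at 24 h and lower at 48 h. The members were chosen from the deposited values, as genes with PGSC identifiers whose US minus control difference was at least 1.5 on the log2 scale at 24 h (at least 2.83-fold higher in US) and at most -1.5 at 48 h (2.83-fold or more lower in US), with a level of at least 1 RPM in the higher library of each pair. RPM is the number of reads of a gene per 1000000 reads of the library total, and it is not divided by gene length, so levels are compared below within a gene, and sums over genes are shares of reads. The 260 members were taken from 39021 genes with PGSC identifiers, and 154 genes met the mirrored rule (lower in US at 24 h and higher at 48 h).

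The material was in vitro potato (Solanum tuberosum L.) of the cultivar Desirée. US explants were single-node segments cut from plantlets aged 4 weeks and exposed on their medium to ultrasound of 35 kHz and 70 W for 20 min, and control explants were prepared in the same way without ultrasound. Both were then kept on a medium without growth regulators and collected directly after the exposure (0 h), on the next days (24 h and then 48 h), and after 1 w or 4 w of culture, which gave 10 groups of 1 library each, 5 US and 5 control. The samples up to 48 h were explants and those at 1 w and 4 w were leaves, stems and roots, per the methods, although the labels name leaf throughout, so a difference between early and late times cannot be told apart from the kind of material. The methods describe 3 biological replicates pooled per group and the labels a single replicate, so there was no replicate check at any single time. Where 5 values of a treatment follow each other, they are in the order of time, with 0 h first and 4 w last.

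Ultrasound is sound above the range of hearing, and in a liquid it can form and collapse small gas bubbles that strain cells mechanically. Cutting a node from a plantlet is also a wound, and the bud and stem of the segment then resume growth. Growing plant cells loosen their walls with expansins and xyloglucan endotransglucosylase/hydrolases (XTHs), while laccases and peroxidases oxidise lignin precursors in cells that thicken their walls, such as those of the xylem. Alcohol dehydrogenase and pyruvate decarboxylase carry out ethanolic fermentation, the route that lets glycolysis go on when oxygen is short.

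The libraries held 33850938 to 45899162 reads. For 8 of the 10 libraries the library most like it across the 20494 expressed features was the other one of the same time. This did not hold for control at 24 h and US at 48 h, which were most like each other (Pearson r = 0.966, across features that are not independent replicates). For comparison, r was 0.953 between US and control at 24 h, 0.943 between US and control at 48 h, and 0.936 between US at 24 h and control at 48 h. Whether labels of libraries at 24 h or 48 h were exchanged was not tested and cannot be settled from the sources used here, so the differences at 24 h and 48 h that define the members follow the labels. Genes of the photosynthetic light-harvesting complex, taken as markers of green tissue, were present in every library. The 7 so named in the study's lists summed to 62.3, 185, 345, 400 and 396 RPM in US over the 5 times, against 120, 286, 168, 1212 and 553 RPM in control, and none of the 7 was a member. Those lists hold genes reported as changed in these libraries, so the 7 are no neutral check on tissue. The number of features with only 1 to 5 reads was 1911, 866, 1554, 1201 and 2021 in US, against 1922, 1721, 1316, 1816 and 1206 in control, so the US library at 24 h had the fewest. The part of these library differences in the results was not tested.

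The median level of the 260 members was 1.57, 3.60, 0.68, 0.93 and -0.13 log2 RPM in US over the 5 times, against 2.13, 1.72, 2.99, 0.72 and 0.59 log2 RPM in control. The US course thus had its highest median at 24 h and the control course at 48 h, and both were lower at 1 w and 4 w. Both maxima lie in libraries that the rule asked to be the higher of their pair, so they are a description only. The minimum level of the rule ensures reads in US at 24 h and in control at 48 h. All 260 members also had reads in control at 24 h. Without any read were 19, 0, 2, 3 and 21 members in US over the 5 times, against 11, 0, 0, 4 and 17 in control. Fewer reads fell on a member than on other genes, with a median of 1.36 log2 RPM over the 10 libraries against 4.71 for the 20432 expressed PGSC genes. These values count reads and not levels per length, and members were also shorter, with a median span of 1473 bases against 3568. Expressed genes had a mean of at least 0 log2 RPM over the 10 libraries, which members did not need. Levels and spans are thus compared under unlike filters.

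**Figure D1:**
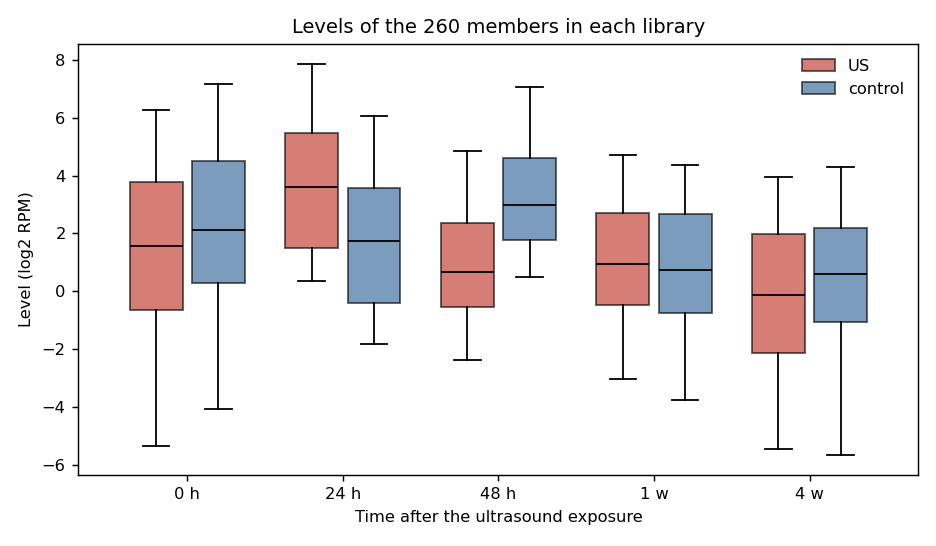
Level in log2 RPM (vertical axis) of the 260 members in each of the 10 libraries, US left of control at each time (horizontal axis). Boxes are quartiles with the median as a line, and whiskers reach the 5th and 95th percentiles. The medians of US at 24 h (3.60) and of control at 48 h (2.99) are the highest, in libraries that chose the members.

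Taken member by member, the US library was highest at 24 h for 195 members (75%), at 0 h for 45, at 1 w for 12, at 4 w for 6 and at 48 h for 2. The control library was highest at 48 h for 131 members, at 0 h for 91, at 24 h for 21, at 4 w for 13 and at 1 w for 4. The lowest US library was that of 4 w for 116 members, of 0 h for 57, of 1 w for 47 and of 48 h for 40. In control it was 4 w for 105, 1 w for 71, 0 h for 42, 24 h for 41 and 48 h for 1. The highest library was thus that of 24 h for most members in US, whereas in control the maxima were spread mainly over 48 h and 0 h. The libraries of 24 h and 48 h chose the members, so these counts are a description only.

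The steps between adjacent times showed the same courses. A step was counted when the 2 libraries differed by at least 1.5 on the log2 scale and the higher one had at least 1 RPM. In US, 142 of 260 members were higher at 24 h than at 0 h (16.8% of all features tested) and 13 were lower (13.6% of all), and 203 of 260 were lower at 48 h than at 24 h (7.23% of all) with none higher (6.94% of all). In control, 48 of 223 were higher at 24 h than at 0 h (14.3% of all) and 100 were lower (11.8% of all), and 150 of 260 were higher at 48 h than at 24 h (6.51% of all) with 7 lower (2.88% of all). From 48 h to 1 w the US libraries differed less, with 31 members higher at 1 w (4.27% of all) and 20 lower (4.8% of all) of 195, whereas 198 of 260 were lower at 1 w in control (8.32% of all) and none was higher (7.21% of all). From 1 w to 4 w, 86 of 188 members were lower in US at 4 w (15.4% of all) and 21 higher (8.29% of all), against 36 lower (9.52% of all) and 29 higher (2.7% of all) of 186 in control. Each step up to the one from 48 h to 1 w includes at least 1 library that chose the members and is a description only. Only the step from 1 w to 4 w uses libraries that did not choose them.

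By the rule, all 260 members were higher in US at 24 h (3.41% of all features tested) and lower at 48 h (5.63% of all), and nothing is read from these counts. The median difference, US minus control, was 1.81 at 24 h and -2.08 at 48 h, and 168 members had the larger difference at 48 h. A difference of at least 2 was reached by 90 members at 24 h, by 140 at 48 h and by 54 at both. The rule itself places US above control at 24 h and below it at 48 h. This limits the possible orders of the 4 libraries, so the counts of orders are a description only. In 210 members (80.8%) US at 24 h and control at 48 h were both above control at 24 h and US at 48 h. The most frequent order, in 83 members, was US at 24 h, control at 48 h, control at 24 h and US at 48 h from high to low, and in 75 members control at 48 h was highest and control at 24 h lowest. US at 24 h was above control at 48 h in 136 members, and the median of that difference was 0.17 on the log2 scale. Just inside the rule stood the pyruvate decarboxylase gene PGSC0003DMG400022953 (1.83 at 24 h and -1.501 at 48 h), PGSC0003DMG400026300 (1.501 and -1.77) and PGSC0003DMG400008056 (1.503 and -2.09). Just outside stood PGSC0003DMG400015534 (1.499 and -4.03), PGSC0003DMG400026443 (1.62 and -1.499) and PGSC0003DMG400003530 (1.495 and -2.53).

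**Figure D2:**
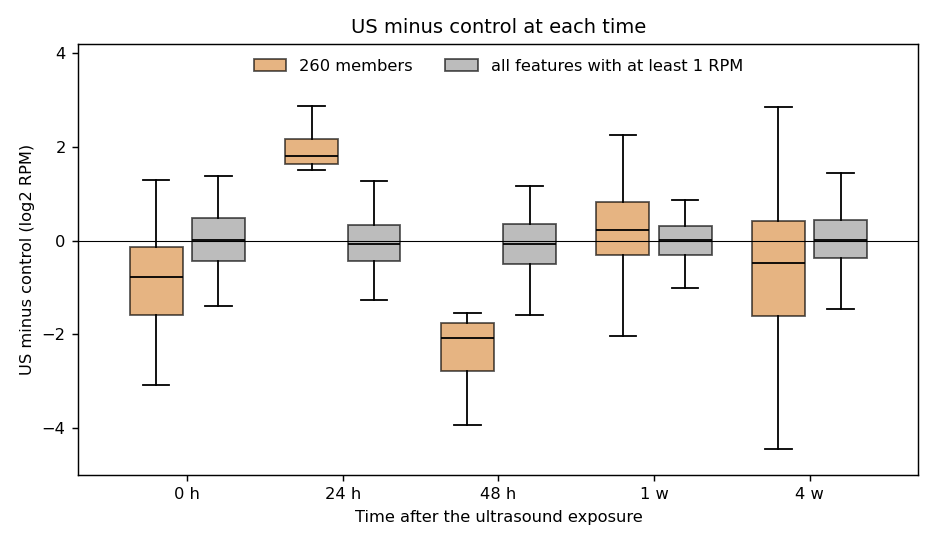
US minus control difference in log2 RPM (vertical axis) at each time (horizontal axis) for the 260 members (left box) and for all features with at least 1 RPM in either library (right box). Boxes are quartiles and whiskers the 5th and 95th percentiles; the 24 h and 48 h member boxes lie above 1.5 and below -1.5 because of the rule, and those at 0 h and 4 w have medians of -0.78 and -0.48.

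The 3 pairs of libraries that the rule did not use, those of 0 h, 1 w and 4 w, show how far the members differed at other times. At 0 h the median difference was -0.78, with 201 members lower and 54 higher in US and 5 without reads in both libraries, whereas the median over all 21236 features tested was 0.02. Of the 206 members with at least 1 RPM in either library, 56 (27.2%) were lower in US by at least 1.5 (4.37% of all) and 7 were higher (4.12% of all). At 1 w the median difference was 0.24, with 167 members higher and 91 lower, and of 183 tested 18 were higher in US by at least 1.5 (1.37% of all) and 9 lower (2.19% of all). At 4 w the median was -0.48, with 89 members higher and 164 lower, and of 173 tested 48 (27.7%) were lower (4.79% of all) and 20 higher (4.64% of all). By the median, the members thus stood below control in US right after the exposure and again after 4 w, and slightly above it at 1 w.

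Across the 3 times, 127 members differed by at least 1.5 at 1 or more of them, with at least 1 RPM in the higher library. The other 133 include members below that level. The same count was not made over all features, so nothing is read from it. Lower in US at both 0 h and 4 w were 11 of 163 members tested at both (0.682% of all), and none of 161 was lower at both 0 h and 1 w (0.233% of all). The genes of the mirrored rule had the other direction at 0 h, with 57 higher and 5 lower of 107 tested, and at 4 w, with 42 higher and 5 lower of 122. At 1 w, 3 of 150 mirrored genes were higher and 8 lower. The difference between the 2 sets was not tested, since genes of 1 library pair are not replicates.

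limma was fitted to the 6 libraries of 0 h, 1 w and 4 w with time as a block, so that the 3 pairs served as replication of the US effect. Of the 260 members, 166 passed the filter of a mean of at least 0 log2 RPM, among 20434 features tested. No member passed the threshold of an adjusted p of 0.05, and neither did any other feature (0% of all), with 0.885 the lowest adjusted p of a member in limma. At an unadjusted limma p under 0.05 there were 13 members, 7.83% of the 166 (5.16% of all), of which 11 were lower in US (2.94% of all) and 2 higher (2.22% of all). The fitted US effect was below 0 in 122 of the 166 members, with a median of -0.34 against 0.02 over all features tested. The lowest unadjusted p of a member was that of PGSC0003DMG400012100 (chromosome 7, 6258626 to 6259653, plus strand), which had 1.01, 5.28, 1.02, 2.20 and 2.53 RPM in US over the 5 times, against 1.57, 0.719, 5.62, 11.2 and 19.7 RPM in control. It was below control at all 3 times of the fit, with an effect of -1.98 ± 0.54 on the log2 scale (SE) and a limma p of 0.00659 before and 0.885 after adjustment.

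The change over 0 h, 1 w and 4 w was tested by the F test of limma over the same 6 libraries, with the 2 treatments as the replication of each time. It passed for 95 of the 166 members, or 57.2% (40.2% of all). Of these, 81 were higher at 0 h than at the later times (16.2% of all) and 14 were lower (24% of all). Without the 0 h pair, 26 members passed, or 15.7% (9.24% of all). The 3 members of smallest p all had their highest level at 0 h. The smallest was that of PGSC0003DMG400018744 (chromosome 7, 2638837 to 2640351, plus strand), with 1208, 86.2, 10.7, 5.33 and 7.22 RPM in US over the 5 times, against 1257, 26.9, 30.7, 7.43 and 7.02 RPM in control (limma adjusted p = 5.64e-05). PGSC0003DMG400031832 (chromosome 9, 53280838 to 53287111, minus strand) had 259.5, 106, 11.3, 8.47 and 6.24 RPM in US, against 327, 33.5, 35.5, 10.8 and 7.81 RPM in control (limma adjusted p = 0.000217). In both genes the 2 treatments were close at 0 h, 1 w and 4 w, with US above control at 24 h and below it at 48 h.

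PGSC0003DMG400028222 (chromosome 10, 56404784 to 56410132, plus strand) carried the most reads of all members, by mean log2 RPM. In US it had 4336, 809.7, 242, 195 and 116 RPM over the 5 times, against 6560.2, 219, 885, 163 and 184 RPM in control (limma adjusted p = 0.000248 for time). It alone made up 42.5% of the summed RPM of the members in US at 0 h, against 40.6% in control at 0 h. Its control series had a second, lower maximum at 48 h, which the US series lacked. The 260 members together summed to 10211, 14149, 2134, 1973 and 1043 RPM in US, against 16169, 3976, 9820.2, 1487 and 1481 RPM in control.

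Most members carry no gene name in the sources used here: the deposited table pairs no identifier with a name, and none of the 260 matched the gene table of the reference. Names were therefore taken from the lists of changed genes in the study, which hold 367 genes. Of these, 48 were members and 47 had a name. Since 22 of the 48 were listed for 24 h and 25 for 48 h, 7 of them for both, their behaviour at those times is not independent evidence. The same holds for the 15 listed for later times, 5 of them for 1 w and 11 for 4 w. By words of the name, members were 14 of the 38 genes listed under cell wall, 7 of 16 oxidative enzymes, 5 of 20 defence genes, 1 of 16 protease inhibitors, 1 of 25 transcription factors and 0 of 15 lipid transfer proteins. For the description below, 38 named members were sorted by role after their values had been seen.

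**Figure D3:**
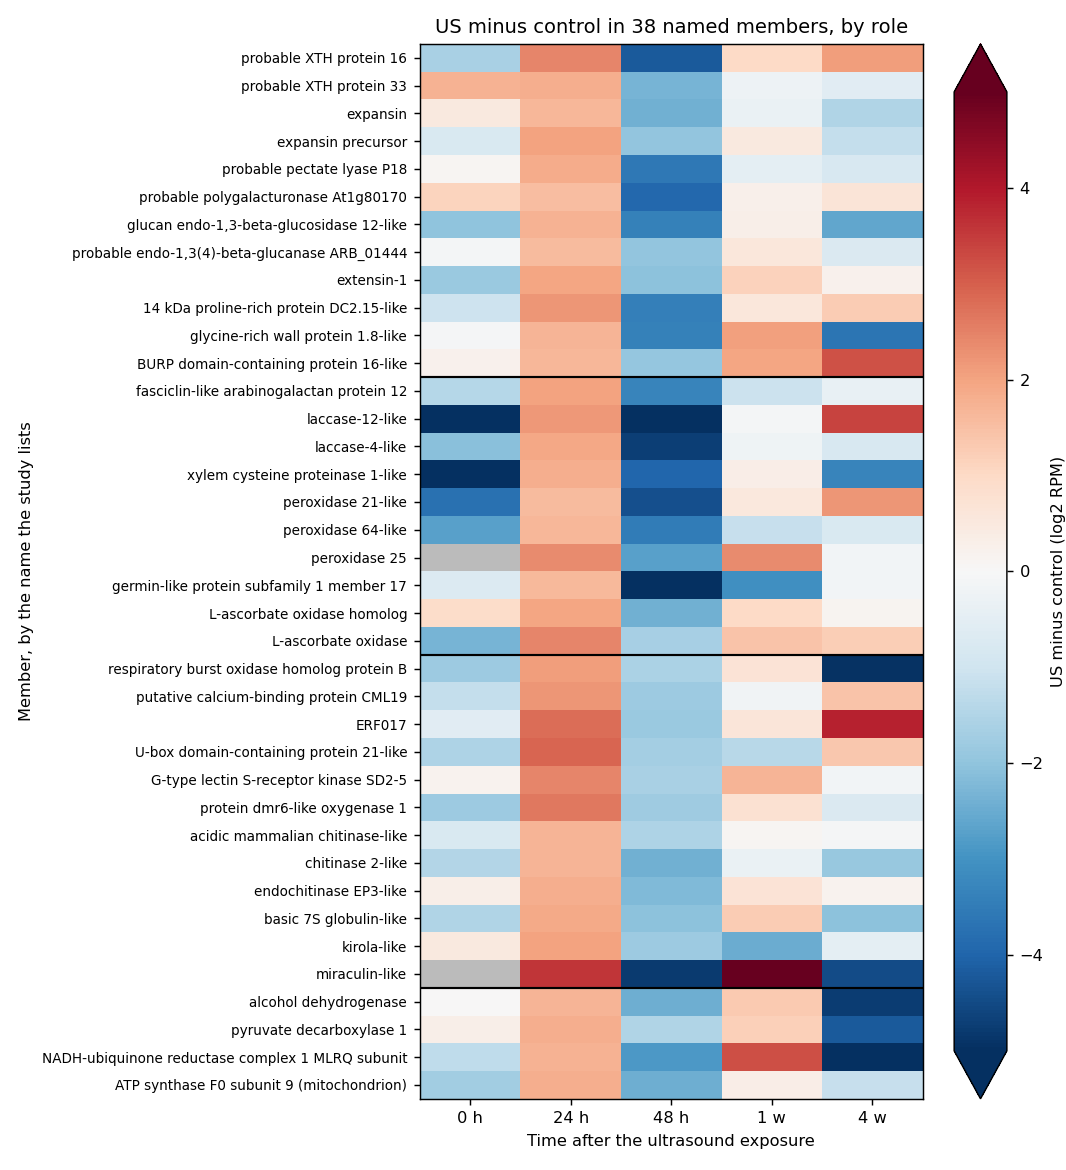
US minus control difference in log2 RPM (colour scale, limited to 5 in either direction) of 38 named members (rows, in 4 roles divided by black lines, from wall polymers through wood and wall oxidation and defence and signalling to energy metabolism) at the 5 times (columns). Grey marks a time without reads in both libraries; the 24 h column is red and the 48 h column blue by the rule, while the 4 energy genes at the bottom are blue at 4 w, with a median of -4.47.

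The first role held 12 members that build or remodel wall polymers. They summed to 120, 3598, 434, 305 and 124 RPM in US over the 5 times, against 123, 959, 2611, 166 and 86.3 RPM in control. The sums were thus alike at 0 h and far apart at 24 h and 48 h. The likeness at 0 h rests on 1 gene that ran against most others, the XTH gene PGSC0003DMG400004109, with 53.1 RPM in US and 15.9 RPM in control. At 0 h the median difference was -0.08, with 7 of 12 lower in US, at 1 w 0.52, with 9 of 12 higher, and at 4 w -0.64, with 7 of 12 lower. At 0 h, 2 of the 12 were lower (4.37% of all) and 1 higher (4.12% of all) by at least 1.5. At 4 w 2 were lower (4.79% of all) and 1 higher (4.64% of all).

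Wall loosening genes were among them. The gene named probable XTH protein 16 (PGSC0003DMG400017298, chromosome 7, 51079173 to 51081145, plus strand) had 6.80, 158, 5.01, 18.9 and 0.279 RPM in US over the 5 times, against 21.0, 28.9, 92.2, 9.42 and 0.0654 RPM in control. XTHs cut and rejoin the xyloglucan chains that tie cellulose together. At 0 h this gene was lower in US by 3.09-fold (95% interval 2.67 to 3.59), and at 4 w it was near 0 in both treatments. A second XTH, named probable XTH protein 33 (PGSC0003DMG400004109, chromosome 5, 7834994 to 7836879, minus strand), had 53.1, 102, 4.84, 7.26 and 21.0 RPM in US, against 15.9, 28.7, 24.2, 8.70 and 30.8 RPM in control, and differed from the first in being higher in US already at 0 h, by 1.74 on the log2 scale. The expansin PGSC0003DMG400023815 (chromosome 6, 24929807 to 24931111, plus strand) had 6.36, 235, 39.1, 21.9 and 4.59 RPM in US, against 4.55, 73.9, 205, 27.7 and 12.9 RPM in control. Expansins loosen walls without cutting them, and both members of this family were low at 0 h compared with 24 h in US and with 48 h in control. The other, an expansin precursor (PGSC0003DMG400001426, chromosome 2, 46128426 to 46130689, plus strand), had 17.2, 169, 27.5, 57.3 and 6.89 RPM in US, against 29.2, 42.1, 107, 41.4 and 15.7 RPM in control.

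Pectin is the gel between wall fibres, and 2 pectin-degrading enzymes were members. The probable pectate lyase P18 (PGSC0003DMG400012640, chromosome 2, 47581291 to 47583372, minus strand) had 1.21, 253, 34.3, 2.42 and 0.228 RPM in US, against 1.12, 69.3, 406, 3.42 and 0.393 RPM in control. The probable polygalacturonase At1g80170 (PGSC0003DMG400021630, chromosome 9, 61120520 to 61124079, plus strand) had 0.631, 14.4, 1.02, 1.06 and 0.304 RPM in US, against 0.295, 4.90, 15.6, 0.885 and 0.196 RPM in control. Both were near their lowest at 0 h and 4 w in either treatment and had their maximum at 24 h in US and at 48 h in control. The glucan endo-1,3-beta-glucosidase 12-like gene (PGSC0003DMG400014457, chromosome 12, 48603571 to 48606131, minus strand), for an enzyme that cuts beta-1,3-glucans such as callose, had 2.11, 137, 40.0, 9.43 and 0.710 RPM in US, against 8.42, 41.3, 411, 7.65 and 4.34 RPM in control. It was lower in US at 0 h by 3.99-fold (95% interval 3.09 to 5.20) and at 4 w by 6.12-fold (95% interval 4.11 to 9.44). A further beta-glucanase, probable endo-1,3(4)-beta-glucanase ARB_01444 (PGSC0003DMG400039856), differed by -0.11 at 0 h, 0.58 at 1 w and -0.73 at 4 w on the log2 scale, each below the size counted.

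Structural wall proteins included genes nearly silent at 0 h. Extensin-1 (PGSC0003DMG400000794, chromosome 4, 59085133 to 59085620, minus strand), for a glycoprotein that cross-links in the wall, had 0, 326, 47.8, 3.04 and 0.0507 RPM in US, against 0.0886, 82.2, 200.4, 1.38 and 0.0436 RPM in control. It was near or at 0 in both treatments at 0 h and 4 w. The DC2.15-like gene, listed as a 14 kDa proline-rich protein (PGSC0003DMG400039214, chromosome 8, 52521963 to 52522379, minus strand) had 9.73, 1087, 32.6, 30.5 and 5.40 RPM in US, against 19.8, 234, 351, 20.5 and 2.23 RPM in control. A 1.8-like gene, listed as a glycine-rich cell wall structural protein (PGSC0003DMG400002108, chromosome 6, 44774919 to 44775951, minus strand) had 0.768, 21.1, 5.13, 60.8 and 0.177 RPM in US, against 0.798, 6.47, 54.1, 14.5 and 2.25 RPM in control. In US its maximum was at 1 w, where it was higher than in control by 4.18-fold (95% interval 3.82 to 4.58), and at 4 w it was lower by 12.7-fold (95% interval 5.93 to 32.3).

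The BURP domain-containing protein 16-like gene (PGSC0003DMG400027019, chromosome 6, 53737455 to 53738914, plus strand), of a plant family of secreted proteins, was above control in US at each time but 48 h. It had 12.4, 1043, 177, 76.7 and 79.5 RPM in US, against 10.8, 329, 666, 19.8 and 8.81 RPM in control. The study listed it for both 1 w and 4 w, so its differences there are no independent evidence. The ratio of US over control was 3.88-fold (95% interval 3.59 to 4.2) at 1 w and 9.02-fold (95% interval 8.13 to 10.0) at 4 w. Over the 3 pairs that the rule did not use, its effect was 1.78 ± 0.50 on the log2 scale (SE), higher in 3 of 3 pairs, with a limma p of 0.00808 before and 0.885 after adjustment. In the 0 h pair the ratio was only 1.15-fold, with a 95% interval that includes 1 (0.999 to 1.32).

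The second role held 10 members tied to wood formation and wall oxidation. Their sums were 27.5, 467, 62.6, 151 and 21.6 RPM in US at the 5 times, against 118, 123, 644, 85.6 and 29.1 RPM in control. Of the 118 RPM in control at 0 h, 87.5 came from 1 gene, the L-ascorbate oxidase PGSC0003DMG400027914. Already at 0 h the members of this role were lower in US: the median difference was -2.32, with 8 of the 9 that had reads lower. Of these, 4 were lower by at least 1.5 with at least 1 RPM in control (4.37% of all). At 1 w and 4 w the medians were 0.12 and -0.14, with 5 of 10 and 6 of 10 lower.

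The laccase-12-like gene (PGSC0003DMG402027116, chromosome 5, 47683220 to 47685570, plus strand) had 0, 2.06, 0.121, 0.815 and 0.203 RPM in US, against 0.857, 0.458, 7.36, 0.861 and 0 RPM in control. The laccase-4-like gene (PGSC0003DMG400011019, chromosome 10, 53998228 to 54002288, minus strand) had 0.521, 4.57, 1.40, 2.17 and 1.90 RPM in US, against 2.25, 1.2, 36.5, 2.53 and 3.34 RPM in control. Both laccases stood out in a single library, that of control at 48 h. At 0 h laccase-4-like was lower in US by 4.31-fold (95% interval 2.58 to 7.55), and laccase-12-like had 0 reads in US and 29 in control. With the US library set to a floor of 3 reads, laccase-12-like was 10.4-fold lower, and its exact 95% interval starts at 7.94-fold. The xylem cysteine proteinase 1-like gene (PGSC0003DMG400029400, chromosome 12, 57549098 to 57552323, plus strand), for a protease of the xylem, had 0, 31.8, 4.55, 3.70 and 0.177 RPM in US, against 1.48, 8.91, 71.3, 2.98 and 1.77 RPM in control. Its difference at 0 h was the most negative of all members on the deposited scale (-5.90), with 0 reads in US and 50 in control. By that floor it was 18.0-fold lower in US, with a 95% interval from 14.1-fold. The fasciclin-like arabinogalactan protein 12 gene (PGSC0003DMG400041435, chromosome 9, 6077823 to 6078542, minus strand) had 2.03, 13.0, 4.62, 5.63 and 3.95 RPM in US, against 5.44, 3.20, 45.9, 12 and 5.08 RPM in control.

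These 4 genes are also 4 of 7 wood forming markers, a list put together for this comparison from names in the study's lists of changed genes. The other 3 were not members. Since the list was drawn from genes reported as changed in these libraries, its courses at 24 h and 48 h are no independent support. The 7 summed to 18.5, 128, 55.3, 69.3 and 26.3 RPM in US at the 5 times, against 32.3, 53.1, 413, 77.2 and 32.0 RPM in control. The 3 that were not members summed to 15.9, 76.5, 44.6, 57.0 and 20.1 RPM in US, against 22.3, 39.3, 252, 58.9 and 21.8 RPM in control. Of the 7, 2 had no reads in US at 0 h and 1 had none in control at 4 w. In such bulk samples, fewer cells of a type and less RNA per cell cannot be told apart, and the part of tissue make-up in the courses of the members was not tested.

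There were 3 class III peroxidases, enzymes that use hydrogen peroxide to oxidise wall phenolics, and their levels outside 24 h and 48 h were unlike. Peroxidase 64-like (PGSC0003DMG400003654, chromosome 2, 39070255 to 39074938, plus strand) had 2.28, 70.3, 22.5, 11 and 6.46 RPM in US, against 14.9, 22.0, 252, 24.1 and 11 RPM in control. It was below control in 3 of 3 pairs that the rule did not use, with an effect of -1.54 ± 0.43 on the log2 scale (SE) and a limma p of 0.00755 before and 0.885 after adjustment. Peroxidase 21-like (PGSC0003DMG400010465, chromosome 10, 54851708 to 54854963, minus strand) had 0, 39.3, 1.91, 0.247 and 0.203 RPM in US, against 0.325, 13.2, 40.6, 0.172 and 0.0436 RPM in control, so it was close to 0 at every time but 24 h and 48 h. Peroxidase 25 (PGSC0003DMG400025478, chromosome 2, 23460810 to 23462778, plus strand) had 0, 8.51, 2.54, 82.6 and 0.608 RPM in US, against 0, 1.63, 16.6, 16.1 and 0.676 RPM in control. It had its US maximum at 1 w and was higher there in US by 5.12-fold (95% interval 4.71 to 5.58).

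The other oxidative members also followed separate courses. The germin-like protein subfamily 1 member 17 gene (PGSC0003DMG400017178, chromosome 9, 56322586 to 56324017, minus strand) had 1.97, 4.52, 0.654, 0.617 and 3.95 RPM in US, against 3.19, 1.48, 48.3, 5.21 and 4.32 RPM in control. Like the laccases, it stood out in the control library at 48 h, and at 1 w it was lower in US by 8.45-fold (95% interval 5.57 to 13.3). Ascorbate oxidases act in the cell wall space on vitamin C. The L-ascorbate oxidase gene PGSC0003DMG400027914 (chromosome 4, 52072923 to 52075473, plus strand) had 17.5, 48.2, 1.84, 2.42 and 1.85 RPM in US, against 87.5, 8.78, 5.81, 0.910 and 0.785 RPM in control, and thus declined from 0 h on in control, while the US series had a maximum at 24 h. The L-ascorbate oxidase homolog PGSC0003DMG400029325 (chromosome 12, 57274756 to 57278449, minus strand) had 3.15, 245, 22.4, 41.9 and 2.31 RPM in US, against 1.68, 62.0, 119, 20.8 and 2.07 RPM in control.

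**Figure D4:**
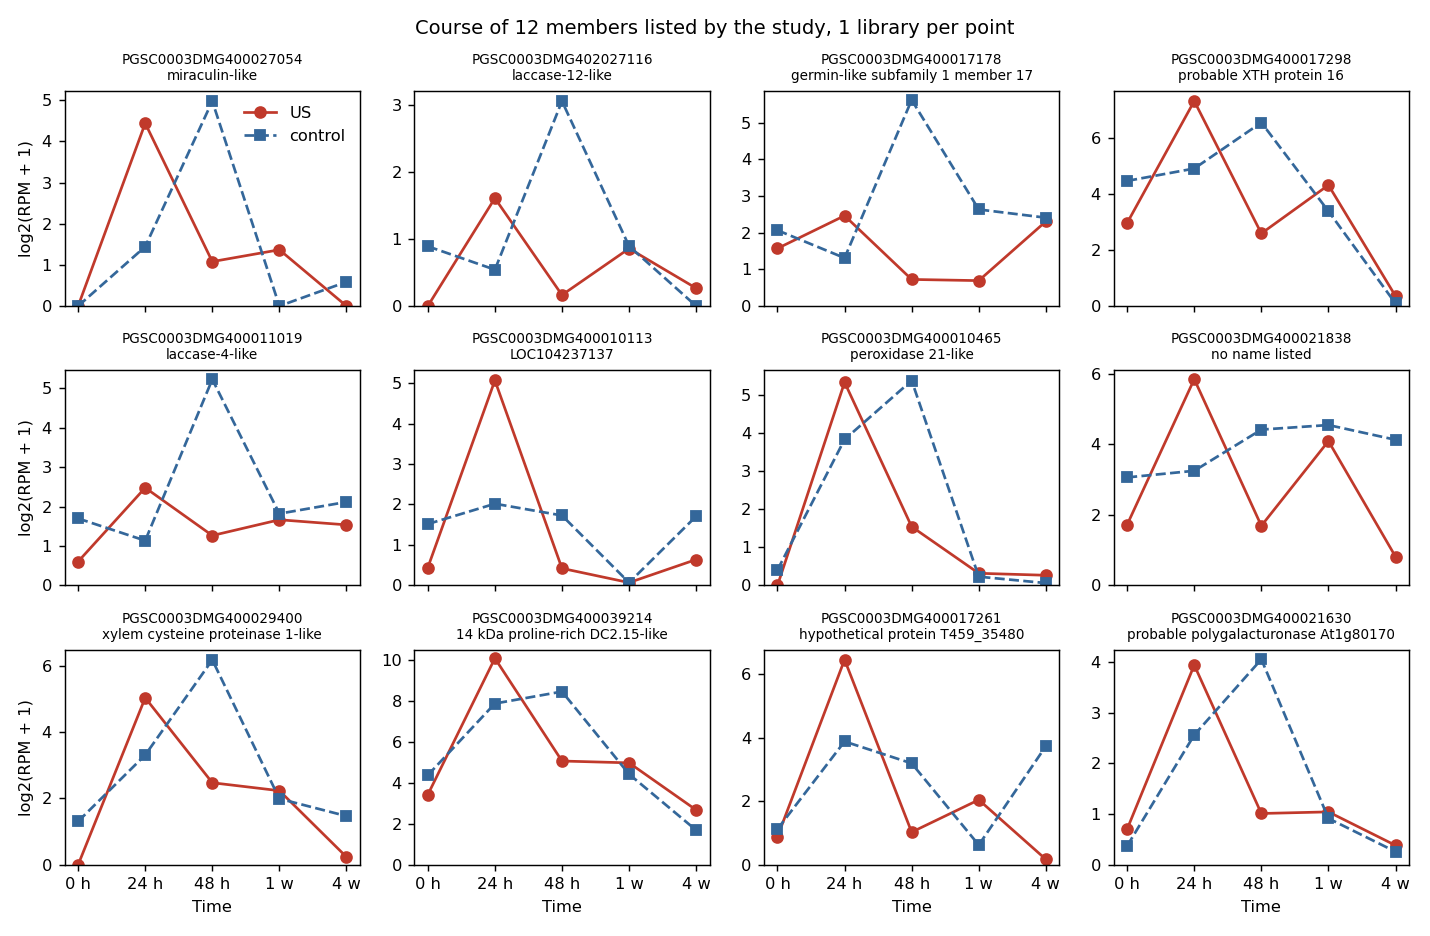
Level as log2(RPM + 1) (vertical axes, each from 0) over the 5 times (horizontal axes, evenly spaced and not to scale in time) of the 12 study-listed members with the largest gap between their 24 h and 48 h differences; red circles and lines are US, blue squares and dashed lines control, with 1 library per point. In PGSC0003DMG400027054 (miraculin-like) the US maximum of 20.7 RPM is at 24 h and the control maximum of 30.5 RPM at 48 h.

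The third role, defence and signalling, held 12 members that summed to 302, 1294, 103, 106 and 56.3 RPM in US at the 5 times, against 561, 314, 455, 80.9 and 53.0 RPM in control. At 0 h the median difference was -1.17, with 8 of the 11 that had reads lower in US and 4 of them by at least 1.5 (4.37% of all). At 1 w the median was 0.63, with 8 of 12 higher, and at 4 w it was -0.31, with 8 of 12 lower. In 6 of the 12 the highest control library was that of 0 h.

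Among the signalling members was the respiratory burst oxidase homolog protein B gene (PGSC0003DMG400024754, chromosome 1, 77342514 to 77346601, minus strand), for an NADPH oxidase that makes superoxide outside the cell. It had 3.37, 147, 1.57, 3.58 and 0.228 RPM in US, against 11.9, 34.6, 4.76, 2.24 and 7.07 RPM in control. It was lower in US at 0 h, with a log2 difference of -1.82, and at 4 w, with one of -4.95. ERF017 (PGSC0003DMG400002899, chromosome 12, 3156787 to 3157787, plus strand), an ethylene-responsive transcription factor and the only member among the listed factors, had 39.2, 105, 5.83, 0.444 and 20.5 RPM in US, against 57.9, 15.2, 20.9, 0.295 and 1.44 RPM in control. Its US minus control difference at 4 w was 3.83, opposite to that of the oxidase. The U-box domain-containing protein 21-like gene (PGSC0003DMG400029464, chromosome 4, 2768216 to 2769742, minus strand), of a family of ubiquitin ligases, had 14.8, 58.6, 1.62, 0.272 and 1.29 RPM in US, against 42.7, 7.82, 5.34, 0.713 and 0.502 RPM in control. The putative calcium-binding protein CML19 gene (PGSC0003DMG400040538, chromosome 11, 43222581 to 43223066, minus strand) had 27.5, 86.0, 1.55, 1.56 and 6.95 RPM in US, against 61.9, 18.7, 5.52, 1.75 and 2.57 RPM in control, and its span overlaps another feature, so its values are uncertain. In all 3 of the last genes control was highest at 0 h and US at 24 h.

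The G-type lectin S-receptor kinase SD2-5 gene (PGSC0003DMG400017331, chromosome 7, 50753635 to 50755291, minus strand) had 7.05, 153, 8.40, 45.2 and 4.46 RPM in US, against 6.26, 28.4, 26.2, 13.8 and 4.93 RPM in control. It was close to control at 0 h and above it at 1 w, by 1.71 on the log2 scale. The protein dmr6-like oxygenase 1 gene (PGSC0003DMG400003880, chromosome 9, 4559716 to 4563700, minus strand), of a family that in Arabidopsis breaks down salicylic acid, had 7.73, 47.6, 1.43, 5.55 and 3.95 RPM in US, against 27.1, 7.76, 4.86, 3.29 and 6.61 RPM in control.

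Chitinases, which cut the chitin of fungal walls, gave 3 members with unlike early levels. The acidic mammalian chitinase-like gene (PGSC0003DMG400011842, chromosome 7, 294672 to 296216, minus strand) had 53.6, 216, 22.4, 15.6 and 6.87 RPM in US, against 91.7, 66.3, 65.7, 14.7 and 7.2 RPM in control. Endochitinase EP3-like (PGSC0003DMG400025063, chromosome 4, 61242553 to 61244259, minus strand) had 48.1, 195, 8.62, 2.67 and 1.4 RPM in US, against 39.6, 55.6, 39.6, 1.67 and 1.27 RPM in control. Chitinase 2-like (PGSC0003DMG400015523, chromosome 11, 45014208 to 45015317, plus strand) had 1.89, 174, 38.7, 6.02 and 1.24 RPM in US, against 5.17, 54.1, 204, 7.5 and 4.63 RPM in control. The first and the second were within a log2 difference of 1 of control at 0 h, 1 w and 4 w, whereas chitinase 2-like was lower in US at 0 h (-1.45) and 4 w (-1.90).

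The miraculin-like gene (PGSC0003DMG400027054, chromosome 6, 52974774 to 52975515, plus strand), named for a protein related to Kunitz protease inhibitors, was the member with the widest swing among the named ones. It had 0, 20.7, 1.11, 1.58 and 0 RPM in US, against 0, 1.72, 30.5, 0 and 0.502 RPM in control. At 1 w it had 64 reads in US and 0 in control, at least 21.4-fold higher in US with control at the floor of 3 reads and the most positive difference of a member at 1 w. At 4 w it had 0 reads in US and 23 in control, at least 6.60-fold lower in US by the same floor. Of the 2 remaining members of the role, basic 7S globulin-like (PGSC0003DMG400008985) was lower in US at 0 h (-1.504) and 4 w (-2.03), and kirola-like (PGSC0003DMG400026652) was lower at 1 w (-2.48).

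The last role held 4 genes of energy metabolism, and at 1 w and at 4 w they shared a direction. They summed to 168, 1007, 53.2, 176 and 26.5 RPM in US at the 5 times, against 214, 299.7, 283, 76.1 and 280.1 RPM in control. At 1 w all 4 were higher in US, with a median difference of 1.25, and at 4 w all 4 were lower, with a median of -4.47, 3 of them by at least 1.5 (4.79% of all). Since 3 of the 4 were listed by the study for 4 w, this shared direction is no independent evidence. At 0 h, 2 were higher and 2 lower.

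Alcohol dehydrogenase (PGSC0003DMG400030771, chromosome 6, 41213848 to 41216108, plus strand), the last step of ethanolic fermentation, had 65.2, 536, 36.8, 119 and 6.51 RPM in US, against 64.6, 166, 200.1, 47.4 and 177 RPM in control. The treatments were equal within counting error at 0 h, with a ratio of US over control of 1.01-fold (95% interval 0.952 to 1.07). US was higher at 1 w by 2.51-fold (95% interval 2.38 to 2.65) and lower at 4 w by 27.2-fold (95% interval 24.0 to 30.9). Pyruvate decarboxylase 1 (PGSC0003DMG400022953, chromosome 2, 32668439 to 32671415, plus strand), the step before it, had 77.2, 373, 3.83, 41.4 and 3.37 RPM in US, against 63.4, 105, 10.8, 18.3 and 61.2 RPM in control. It was likewise higher in US at 1 w, by 2.26-fold (95% interval 2.07 to 2.46), and lower at 4 w, by 18.2-fold (95% interval 15.2 to 21.8). In control it was lower at 48 h than at 24 h, unlike alcohol dehydrogenase, and it was the member nearest to the edge of the rule.

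The gene named NADH-ubiquinone reductase complex 1 MLRQ subunit (PGSC0003DMG400001372, chromosome 2, 45423918 to 45424907, minus strand), for a part of the first complex of the respiratory chain, had 0, 47.1, 1.26, 3.65 and 0 RPM in US, against 0.0591, 14.2, 9.12, 0.393 and 4.43 RPM in control. At 4 w it showed the most negative difference of all members, with 0 reads in US and 203 in control. By the floor of 3 reads it was 58.2-fold lower in US, with a 95% interval from 46.9-fold. At 1 w it was higher in US by 9.29-fold (95% interval 5.53 to 16.7). ATP synthase F0 subunit 9 (PGSC0003DMG400002202, chromosome 8, 36684939 to 36689112, minus strand), part of the proton channel of the mitochondrial ATP synthase, had 25.6, 51.4, 11.4, 12.4 and 16.6 RPM in US, against 86.4, 15, 62.8, 9.96 and 37.3 RPM in control, and was lower in US at 0 h, with a log2 difference of -1.75. The MLRQ subunit gene was below the level filter of the limma fit and was not tested. For the other energy genes the limma test over the 3 pairs did not pass, with an adjusted p of 0.903 for alcohol dehydrogenase.

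Of the 9 named members outside these roles, several were listed without a known function. PGSC0003DMG400010113 (uncharacterized protein LOC104237137, chromosome 2, 44655570 to 44656035, plus strand) had 0.356, 32.5, 0.339, 0.0494 and 0.558 RPM in US, against 1.86, 3.05, 2.31, 0.0492 and 2.27 RPM in control, so a single library, US at 24 h, stood out. The hypothetical protein T459_35480 gene (PGSC0003DMG400017261, chromosome 9, 56993527 to 56993929, minus strand) had 0.850, 87.4, 1.04, 3.14 and 0.127 RPM in US, against 1.18, 13.8, 8.17, 0.541 and 12.3 RPM in control. It was higher in US at 1 w by 5.80-fold (95% interval 3.67 to 9.57) and lower at 4 w by 97.4-fold (95% interval 41.5 to 301). The listed gene without a name, PGSC0003DMG400021838 (chromosome 5, 47001123 to 47001679, plus strand), had 2.30, 56.7, 2.23, 16.1 and 0.760 RPM in US, against 7.36, 8.52, 20.4, 22.4 and 16.5 RPM in control, and was lower in US at 0 h by 3.19-fold (95% interval 2.48 to 4.14) and at 4 w by 21.7-fold (95% interval 15.1 to 32.4).

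The gene named protein RSI-1 (PGSC0003DMG402015689, chromosome 11, 1716258 to 1717672, plus strand) had 7.05, 412, 81.3, 76.1 and 7.71 RPM in US, against 24.1, 134, 628, 79.0 and 27.2 RPM in control. It was one of the 11 members lower in US by at least 1.5 at both 0 h (-1.77) and 4 w (-1.82), with no difference of that size at 1 w (-0.05). The putative nuclease HARBI1 gene (PGSC0003DMG400010713, chromosome 7, 36903263 to 36905080, plus strand) had 800.4, 372, 27.8, 10.1 and 98 RPM in US, against 1340.4, 107, 129, 6.84 and 14.3 RPM in control. Both treatments had their maximum at 0 h, and US was higher at 4 w by 6.86-fold (95% interval 6.31 to 7.46).

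Among the members without a name, those with the widest swings between 24 h and 48 h were mostly low. PGSC0003DMG400009002 (chromosome 1, 62307075 to 62307832, plus strand) had 11.9, 8.03, 0, 1.4 and 0.0253 RPM in US, against 24.6, 2.16, 2.92, 1.23 and 0.305 RPM in control, with 0 reads in US at 48 h and 111 in control. PGSC0003DMG400015533 (chromosome 11, 45260834 to 45261488, plus strand) had 15.2, 11.2, 0.194, 0 and 1.62 RPM in US, against 71.4, 1.02, 3.23, 0 and 0.0654 RPM in control. It was lower in US at 0 h by 4.70-fold (95% interval 4.28 to 5.16), without reads in both treatments at 1 w, and higher in US at 4 w by 24.8-fold (95% interval 8.11 to 123) on 3 reads in control. PGSC0003DMG400004925 (chromosome 4, 66465143 to 66468232, minus strand) had reads only at 24 h and 48 h, with 67 and 11 in US, against 1 and 55 in control. PGSC0003DMG400032828 (chromosome 7, 49375083 to 49376530, minus strand) had 0.576, 1.4, 0.0968, 1.18 and 1.14 RPM in US, against 0.768, 0.240, 3.29, 0.910 and 1.59 RPM in control, and PGSC0003DMG400028928 (chromosome 6, 50338438 to 50339271, minus strand) had 0.247, 1.14, 0, 0.938 and 0.101 RPM in US, against 0.502, 0.370, 1.18, 0.270 and 0 RPM in control. In the first of these genes control at 48 h was the highest of the 10 libraries, and in the second control at 48 h and US at 24 h were about level.

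At single times outside the rule, the extremes were low genes as well. The most positive difference at 0 h was that of PGSC0003DMG401026994 (chromosome 6, 52454719 to 52456956, minus strand), with 35 reads in US and 0 in control, at least 10.8-fold higher in US by the floor of 3 reads. At 1 w the most negative was that of PGSC0003DMG400004932 (chromosome 4, 66219080 to 66221346, minus strand), with 1 read in US and 16 in control, both under 1 RPM. The most positive at 4 w was that of PGSC0003DMG401018450 (chromosome 3, 32065113 to 32072988, plus strand), with 37 reads in US and 0 in control, at least 14.3-fold higher in US by that floor. Each of these rests on 1 library per treatment.

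The members lay on all 12 chromosomes of the SolTub 3.0 build and on its unplaced sequence. The ratio of members to expressed PGSC genes ran from 0.883% on chromosome 3 to 1.90% on chromosome 7. It is not a share, since members below the mean level of an expressed gene count only in the numerator. In runs of neighbours less than 20 kb apart stood 33 members, in 15 runs. The same count was not made over all PGSC genes, so nothing is read from it. Some runs hold overlapping gene models that can share reads, such as PGSC0003DMG402012862 and PGSC0003DMG401012862 on chromosome 12. The largest run, of 5 genes, lay on chromosome 7 between 48352756 and 48374465, all on the plus strand. Its members were PGSC0003DMG400018378, PGSC0003DMG400018400, PGSC0003DMG400018399, PGSC0003DMG400018398 and PGSC0003DMG400018396, of which the second and the fourth are listed as uncharacterized proteins.

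The 5 neighbours had like courses apart from 1 w, shown here because they were next to each other and chosen after their values were seen. At 1 w PGSC0003DMG400018378 had a difference of -1.58, on 2 reads in US and 6 in control, whereas the others were higher in US. PGSC0003DMG400018398 had 3.76, 104, 5.01, 7.70 and 0.406 RPM in US, against 7.09, 32.7, 27.5, 2.73 and 13.9 RPM in control. PGSC0003DMG400018400 had 3.13, 77.0, 3.32, 5.16 and 0.253 RPM in US, against 4.64, 25.4, 17, 1.94 and 10.6 RPM in control. PGSC0003DMG400018378 had 0.686, 26.4, 0.678, 0.0494 and 0.0507 RPM in US, against 1.00, 9.26, 5.36, 0.148 and 2.31 RPM in control. In US all 3 were highest at 24 h and far lower at the other times, and at 4 w all 3 were below control. The remaining 2 had 4 w differences of -6.41 (PGSC0003DMG400018399) and -2.35 (PGSC0003DMG400018396), so all 5 were lower in US at 4 w by at least 1.5 (4.79% of all features tested). The study had listed PGSC0003DMG400018398 and PGSC0003DMG400018400 for 4 w, so their differences there are no independent evidence. If these genes are near-identical copies, the counting of uniquely aligned reads could split reads among them, and their sequences were not examined here. A span overlapping another feature was present in 27 members, whose values are uncertain in the same way, since the sources used here do not say whether reads were counted by strand.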

How the data were processed

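The members, the lists and the tests were chosen with earlier results of these data known. The authors trimmed reads (Trim Galore 0.5.0, base calls by CASAVA 1.7, 10 bases removed at the 5′ end), aligned them to SolTub 3.0 with HISAT2 2.1.0 and counted exon reads with SeqMonk 1.42.0 at a mapping quality of at least 60; the submitters' processing notes name SeqMonk and the build. The deposited values are log2 RPM per feature, without filter, and a feature without reads has the value of 0.9 reads. The library totals this implies gave whole reads, within 0.1, for 99.98% of values. Gene reads summed to 1.71 to 1.77 times the total, so a read pair can count more than once. Whether counting used strand is not given in the sources used here.

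Differences are US minus control on the deposited log2 scale. With 1 library per group, pairs were compared by size only (at least 1.5, higher library at least 1 RPM). Ratios have exact conditional 95% intervals (Clopper-Pearson). Where a library had 0 reads, the ratio used 3 reads in its place and is no lower bound, while the interval used the 0. Both cover counting error only. The intervals treat each counted read as independent. Since a read pair can count more than once, they may be too narrow even for counting error. limma 3.58.1 in R 4.3.3 (lmFit, eBayes with trend, Benjamini-Hochberg adjustment over 20434 features, threshold 0.05) was fitted to the 6 libraries of 0 h, 1 w and 4 w and tested on simulated data with 200 changed genes. Its p-values measure the spread between pairs of different times. Genes were named by rule: the 8 widest swings, the 5 highest mean levels, the 12 study-listed members of widest swing, 3 on each side of the rule's edge, the extremes at 0 h, 1 w and 4 w, and the 3 smallest p per limma test; other named genes were chosen after their values were seen. Tried as alternatives were other sizes and levels, quantile normalization, median centring, log2(RPM + 1), other model terms and leaving out a pair; members without overlap and members with at least 100 reads were added after seeing the data. From the study's lists only identifiers, names and times were taken. No sequences were used.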

Additional observations from a re-analysis of the deposited data

Results flagged for a closer look

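The results below were picked out because a member differed between US and control by at least 1.5 on the log2 scale in one direction at one time and in the opposite direction at another, among the times 0 h, 1 w and 4 w that did not choose the members. There were 16 such cases in 15 genes. Each time has 1 library per treatment, so the difference between the times was not tested. Over all features tested, 84 of 20130 showed such a case between 0 h and 1 w, 62 of 20101 between 0 h and 4 w and 89 of 20450 between 1 w and 4 w, against 4 of 161, 7 of 163 and 5 of 152 members.

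US minus control was compared between 0 h, given first, and 1 w. PGSC0003DMG400001137 was at -2.52 and then 1.75, a change of 4.26. PGSC0003DMG402008771 was at -1.87 and then 1.53, a change of 3.39. PGSC0003DMG400018396 was at -1.93 and then 2.59, a change of 4.52. PGSC0003DMG400020931 was at -1.87 and then 1.80, a change of 3.67. In all 4 genes US was lower at 0 h and higher at 1 w, and PGSC0003DMG402008771 and PGSC0003DMG400020931 overlap another feature in span.

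US minus control was compared between 0 h, given first, and 4 w. PGSC0003DMG400028337 was at -1.75 and then 2.09, a change of 3.84. PGSC0003DMG402013782 was at -1.64 and then 2.29, a change of 3.93. PGSC0003DMG400025455 was at 1.69 and then -2.31, a change of -4.00. PGSC0003DMG400002993 was at -1.59 and then 2.12, a change of 3.72. PGSC0003DMG401027402 was at -1.79 and then 2.86, a change of 4.65. PGSC0003DMG400015533 was at -2.23 and then 4.63, a change of 6.86. PGSC0003DMG400033608 was at -2.38 and then 2.11, a change of 4.49. In 6 of these 7 genes US was lower at 0 h and higher at 4 w, and the exception was PGSC0003DMG400025455. At 4 w PGSC0003DMG400015533 had 64 reads in US and 3 in control. PGSC0003DMG400028337 and PGSC0003DMG401027402 overlap another feature in span.

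US minus control was compared between 1 w, given first, and 4 w. PGSC0003DMG400001372 (NADH-ubiquinone reductase complex 1 MLRQ subunit) was at 3.22 and then -7.60, a change of -10.82. PGSC0003DMG400002108 (the 1.8-like glycine-rich wall protein) was at 2.06 and then -3.66, a change of -5.73. PGSC0003DMG400024050 was at 2.25 and then -1.81, a change of -4.06. PGSC0003DMG400018396 was at 2.59 and then -2.35, a change of -4.94. PGSC0003DMG400017261 (hypothetical protein T459_35480) was at 2.53 and then -6.61, a change of -9.14. In all 5 genes US was higher at 1 w and lower at 4 w. The study had listed PGSC0003DMG400001372 and PGSC0003DMG400017261 for 4 w and PGSC0003DMG400002108 for 1 w, so these are no independent evidence. PGSC0003DMG400001372 had 0 reads in US at 4 w, so its value there depends on how the deposited scale sets a gene without reads.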

How the results depend on the processing

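The number of members depended on the rule: 835 with a difference of at least 1, 54 with at least 2, 160 with at least 2 log2 RPM in the higher libraries, 500 with no minimum level and 97 on the log2(RPM + 1) scale, against 260. It was 239 under quantile normalization and 262 with median centring. Members past the size at 0 h numbered 63, against 100 with a size of 1, 24 with a size of 2 and 31 on the log2(RPM + 1) scale. At 1 w there were 27, against 59 with a size of 1, 14 with a level of at least 2 log2 RPM and 11 on the log2(RPM + 1) scale, and at 4 w 68, against 37 with that level and 38 on that scale. Without the 27 members that overlap another feature, 53, 22 and 61 were past the size at 0 h, 1 w and 4 w, and with at least 100 reads in the higher libraries 48, 23 and 57. These counts hold both directions, and the shares over all features at the other settings were not counted. They show only how the counts move with the setting. The US effect passed for 0 members in each of the 9 alternatives of limma. The change over time passed for 95 members, for 62 where a mean of at least 2 log2 RPM was asked, which left 87 members in the fit, and for 26 to 88 with 1 pair left out; 26 is the count without the 0 h pair.

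Replicate numbers gave no pairing, because each group holds 1 library. The US and control libraries of the same time were instead paired by the time block in limma, and without that block the US effect also passed for 0 members. Depth limits the low members: the floor of 3 reads was 0.0654 to 0.0886 RPM, and 19 members in US at 0 h and 21 in US at 4 w had no reads.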

Other observations

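Under the rule that chose the members, 10 further features without PGSC identifiers also passed, and they were not described. Outside 24 h and 48 h, 2 members were higher in US by at least 1.5 at both 1 w and 4 w (24 of all features), 3 were lower at both (71 of all), 11 were lower at both 0 h and 4 w (137 of all), and none was higher at both 0 h and 4 w (153 of all).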
